A study of Mus musculus with 6 samples.

Results

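The cathepsins are proteases of the lysosome, and the cystatins are proteins that inhibit them. Expression of 10 such genes was measured in hippocampal tissue of mice after cerebral ischemia/reperfusion (I/R) injury, for 8 cathepsins (Ctsb, Ctsc, Ctsd, Ctsh, Ctsk, Ctsl, Ctss and Ctsz) and 2 cystatins (Cst3 and Cstb). They were taken by gene symbol from a table of 41386 genes, and each symbol was found there. The data were bulk RNA-seq counts from 6 libraries, 3 per group. The I/R group came from C57BL/6 mice in which the middle cerebral artery was occluded for 1.5 h (MCAO), followed by reperfusion for 24 h, and the sham group from C57BL/6 mice given the sham operation. All mice were 56 days old wild types, with no transgene named in the labels. By the study's methods a filament closed the artery on the left, the hippocampus of that side was dissected, and several hippocampi were pooled for a replicate, so the spread between libraries is one between pools and not between single mice.

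Most cathepsins are cysteine proteases, made as inactive proenzymes and activated in the acid interior of the lysosome. Ctsd differs in being an aspartic protease. Cystatins block cysteine cathepsins that leave the lysosome, Cst3 (cystatin C) as a secreted protein and Cstb (stefin B) inside the cell. In the brain, cathepsin expression is high in microglia and in macrophages that enter from the blood, neurons also depend on Ctsb, Ctsd and Ctsl to clear proteins, and Cst3 is made in large amounts by glia and the choroid plexus.

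The promoters of 3 cathepsins are printed here because these genes were among those that rose, and because RefSeq and the GENCODE M21 annotation place their starts at the same base. The sequences are those of RefSeq on GRCm38.p6, read 5′ to 3′ on the strand of the gene and ending at the base before its start, or 6 bases past it for Ctss so that a match across the start is whole. They cover chr7:88277835-88278084 (plus strand) for Ctsc, chr3:95526536-95526791 (plus strand) for Ctss and chr2:174439040-174439289 (minus strand) for Ctsz. Capitals mark the core GAGGAAG, a site of the myeloid transcription factor PU.1, here in its reverse complement.
Ctsc promoter: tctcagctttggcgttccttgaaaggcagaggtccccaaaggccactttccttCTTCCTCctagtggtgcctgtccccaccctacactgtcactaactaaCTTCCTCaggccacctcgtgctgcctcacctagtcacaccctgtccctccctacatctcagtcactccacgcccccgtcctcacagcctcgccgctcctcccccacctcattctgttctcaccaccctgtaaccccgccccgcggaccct
Ctss promoter: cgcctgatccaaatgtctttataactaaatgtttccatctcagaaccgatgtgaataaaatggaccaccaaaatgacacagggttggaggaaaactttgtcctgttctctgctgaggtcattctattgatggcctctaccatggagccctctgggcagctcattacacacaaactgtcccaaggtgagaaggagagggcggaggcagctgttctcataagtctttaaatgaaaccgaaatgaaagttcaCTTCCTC
Ctsz promoter: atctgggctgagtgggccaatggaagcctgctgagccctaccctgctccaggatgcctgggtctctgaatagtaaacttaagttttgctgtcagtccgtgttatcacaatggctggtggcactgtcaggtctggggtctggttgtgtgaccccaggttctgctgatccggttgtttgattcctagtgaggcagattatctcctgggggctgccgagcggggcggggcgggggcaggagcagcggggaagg

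A RefSeq promoter window of 300 bases (250 before the start and 50 after) was held for 7 of the 10 genes: Ctsc, Ctsd, Ctsk, Ctsl, Ctss, Ctsz and Cst3. Searched on both strands, GAGGAAG was present in 3 of the 7, against 13.6% of 32851 mouse promoter windows. It began 197 and 150 bases upstream of the start in Ctsc, 233 and 59 bases upstream in Ctsk, and 1 base upstream in Ctss, and the Ctsz window held none. The E-box CACGTG, the core of the sites bound by TFEB, a regulator of lysosomal genes, was present in 2 of the 7, against 7.15% of windows, and no match of either motif overlapped the other. It began 245 and 98 bases upstream of the RefSeq start in Ctsd and 236 bases upstream in Ctsl. In those genes and in Cst3 a GENCODE transcript began 211, 370 and 180 bases further upstream than the RefSeq start, respectively, so their windows are in part transcribed and are not printed. These are matches of letters, and binding was not measured.

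The libraries held 37493042 to 44788547 counts. Samples of the I/R group varied more among themselves than those of the sham group, with a common biological coefficient of variation of 0.236 against 0.125. The transcripts of the choroid plexus differed widely within both groups, from 147 to 4942 summed CPM (counts scaled to a common library total) in I/R and from 176 to 6305 in sham. I/R replicate 3 and sham replicate 1 were the libraries with little of it. Counts were compared by edgeR's quasi-likelihood test over 18569 genes with TMM scaling, which corrects library sizes for a shift in composition, and Benjamini-Hochberg adjustment. A gene was called where the adjusted p was under 0.05 and the change over 1.2-fold.

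All 8 cathepsins rose after I/R, as did Cstb, whereas Cst3 was not called. All 10 genes passed the filter on low counts, so 9 of 10 were called higher and 0 lower, where 21.8% of all tested genes were called higher and 19.9% lower. In the same 9 genes every I/R library exceeded every sham library, which held for 29.3% of tested genes. The fold change was over 2 in 7 of the 9 (all but Ctsb and Ctsd), against 10.2% of tested genes called higher at that fold. The median log2 fold change of the 10 genes was 1.14, against 0.03 over all tested genes. In bulk tissue, more cells of a type and more RNA per cell cannot be told apart.

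**Figure D1:**
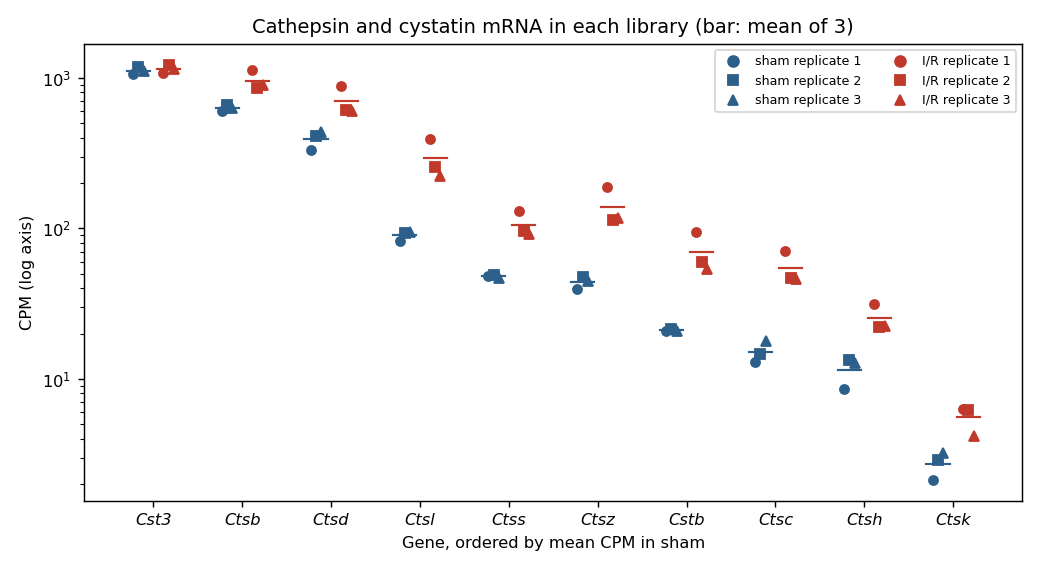
CPM (TMM-scaled, log axis) of each gene in each of the 6 libraries, sham in blue and I/R in red, with symbols for replicates 1 to 3 and bars for the group means of 3 libraries. The I/R libraries lie above the sham libraries in 9 genes, and the groups overlap for Cst3, whose levels lie between 1062 and 1222 CPM.

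Ctsc, cathepsin C or dipeptidyl peptidase I, which activates the serine proteases of neutrophils and mast cells, had the largest change of the 10. Its levels were 70.4, 46.6 and 46.0 CPM in I/R replicates 1, 2 and 3 and 12.96, 14.5 and 17.9 CPM in the sham replicates. The lowest I/R library stood 2.56-fold above the highest sham library. The log2 fold change was 1.84 (SE 0.20, 95% interval 1.38 to 2.31, adjusted p = 0.000681), and 5.15% of all tested genes changed by as much or more in that direction. Cstb (1.72), Ctsl (1.70) and Ctsz (1.67) came close, so the first rank is uncertain. Without both libraries of little choroid plexus RNA, Cstb (1.86) stood above Ctsc (1.84).

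Ctsl, an endopeptidase that degrades a broad range of lysosomal proteins, was at 395, 257 and 222 CPM in I/R and at 82.5, 92.7 and 94.9 CPM in sham. The groups were well apart, and I/R replicate 1 stood above the other I/R libraries. The log2 fold change was 1.70 (SE 0.21, adjusted p = 0.00097). Ctsz, a carboxypeptidase also named cathepsin X, was at 188, 113 and 118 CPM in I/R and at 39.5, 47.7 and 44.4 CPM in sham. Replicate 1 was again the highest of its I/R libraries, and its log2 fold change was 1.67 (SE 0.20, adjusted p = 0.000894).

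Ctss, cathepsin S, trims the invariant chain from MHC class II molecules and, unlike most cathepsins, stays active at neutral pH. It was at 129.7, 96.4 and 91.3 CPM in I/R and at 48.3, 49.0 and 46.4 CPM in sham. The sham libraries lay very close together (47.9 ± 1.33 CPM, SD, n = 3), and the I/R libraries averaged 106 ± 20.8 CPM (n = 3). The interval of its log2 fold change ran from 0.83 to 1.46.

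Ctsh, an aminopeptidase, and Ctsk, a collagen-degrading cathepsin best known from osteoclasts, had intermediate changes. Ctsh was at 31.3, 21.99 and 22.4 CPM in I/R and at 8.50, 13.3 and 12.7 CPM in sham, and the groups did not overlap. Its log2 fold change was 1.14 (SE 0.21, adjusted p = 0.00425). Ctsk was at 6.33, 6.25 and 4.18 CPM in I/R and at 2.13, 2.88 and 3.20 CPM in sham, from 288, 250 and 167 counts against 83, 117 and 110. The groups came close, with the lowest I/R library 1.31-fold above the highest sham library, and the log2 fold change was 1.03 (SE 0.25, adjusted p = 0.0122).

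Ctsb, cathepsin B, which can act as an endopeptidase and as a dipeptide-removing carboxypeptidase, and Ctsd, the aspartic protease, had the highest FPKM of the cathepsins in both groups and changed least. Ctsb was at 1126, 853 and 895 CPM in I/R and at 600.2, 659 and 634 CPM in sham. Its I/R libraries were all higher, by 1.29-fold at the closest, and its log2 fold change was 0.60 (SE 0.14, 95% interval 0.27 to 0.93, adjusted p = 0.0119). That call was lost when sham replicate 1 or sham replicate 3 was left out (adjusted p = 0.0588 and 0.0538, with log2 fold changes of 0.56 and 0.60). It was also lost without both libraries of little choroid plexus RNA, where the log2 fold change was 0.60 and the adjusted p 0.0877.

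Ctsd was at 876, 614 and 599 CPM in I/R and at 334, 414 and 436 CPM in sham. Sham replicate 1 was the lowest and I/R replicate 1 the highest, and the groups did not overlap. Its log2 fold change was 0.82 (SE 0.18, 95% interval 0.40 to 1.24, adjusted p = 0.00929), and it was 0.80 without both libraries of little choroid plexus RNA. Sham replicate 1 was the lowest sham library for 8 of the 10 genes, all except Ctss and Cstb.

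Of the inhibitors, Cstb is the one that acts inside cells, and its loss in humans causes a progressive myoclonus epilepsy. It was at 94.2, 59.8 and 53.4 CPM in I/R and at 20.9, 21.5 and 20.6 CPM in sham. The sham libraries were nearly the same (21.0 ± 0.432 CPM, SD, n = 3), and even the lowest I/R library was 2.49-fold above them. The log2 fold change was 1.72 (SE 0.20, 95% interval 1.25 to 2.19, adjusted p = 0.00088).

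Cst3, the secreted inhibitor, was at 1069, 1222 and 1150.4 CPM in I/R and at 1062, 1185 and 1105 CPM in sham. The groups overlapped throughout, and I/R replicate 1, which was the highest of its group for the other 9 genes, was the lowest for Cst3. The log2 fold change was 0.04 (SE 0.13, adjusted p = 0.835), with a 95% interval from -0.26 to 0.33 that leaves room for a rise or a fall of that size. Its value depended on the scaling. With library sizes alone it was 0.29 (adjusted p = 0.0564), where the median over all tested genes moved from 0.03 to 0.28, so that Cst3 again stood at that median. On the deposited FPKM the groups did not overlap (1838 to 1960 in I/R, 1471 to 1619 in sham). The 9 other genes were called higher with library sizes alone as well, where 34.1% of all tested genes were.

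**Figure D2:**
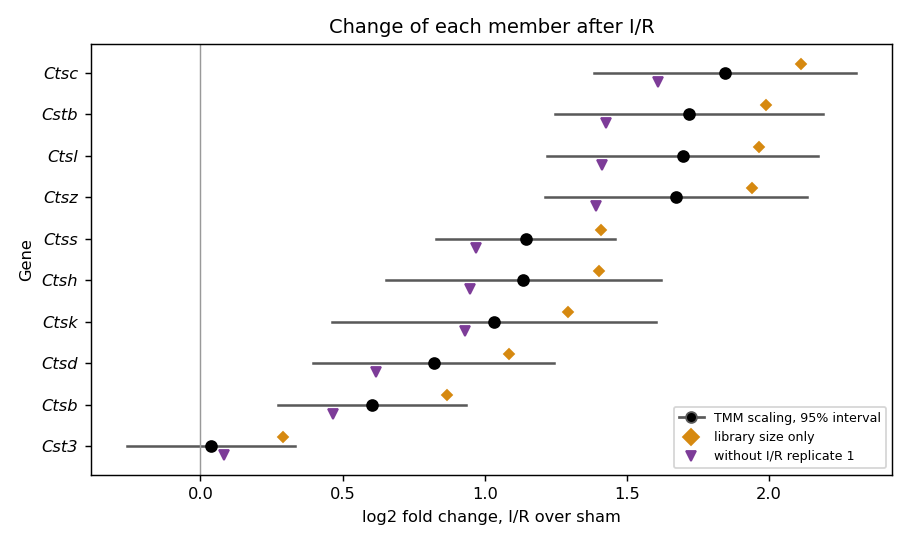
Log2 fold change of each gene, I/R over sham, from edgeR with TMM scaling (black points, lines for 95% intervals), with library sizes alone (orange diamonds) and without I/R replicate 1 (purple triangles). Intervals of 9 genes lie above 0, that of Cst3 spans it, library sizes alone move every gene to the right, and leaving out I/R replicate 1 lowers the 9 genes while Cst3 goes from 0.04 to 0.08.

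I/R replicate 1 was the highest I/R library for 9 of the 10 genes, as it was for 73.1% of the 4054 genes called higher. Its excess over the mean of the other I/R libraries was 1.66-fold for Cstb, 1.65-fold for Ctsl and 1.63-fold for Ctsz, and it was 1.29-fold for Ctsb, 1.21-fold for Ctsk and 0.901-fold for Cst3. Without it the log2 fold changes fell to 1.61 for Ctsc, 1.43 for Cstb, 1.41 for Ctsl, 1.39 for Ctsz and 0.97 for Ctss, and the 9 genes remained called higher.

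Because every scaling factor cancels in a ratio of counts from the same library, each gene was also set against Cst3. Per 100 counts of Cst3, Ctsl counts numbered 36.99, 21.1 and 19.3 in the I/R libraries, against 7.77, 7.82 and 8.59 in the sham libraries. Cstb counts numbered 4.64 to 8.82 in I/R and 1.81 to 1.97 in sham, and Ctsb counts 69.8 to 105 against 55.6 to 57.3. All 9 ratios were higher in every I/R library than in any sham library, which 25.4% of tested genes showed against Cst3. These ratios are descriptions and were not tested.

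**Figure D3:**
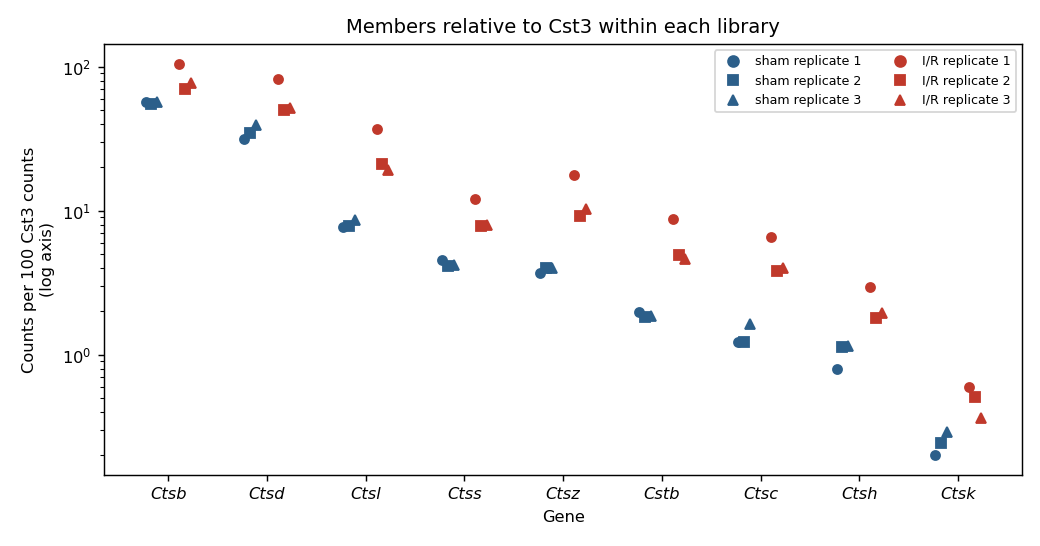
Counts of each gene per 100 Cst3 counts of the same library (log axis), sham in blue and I/R in red, with symbols for replicates 1 to 3. Every I/R point lies above every sham point for all 9 genes, and the groups come close for Ctsb (69.8 against 57.3) and Ctsk (0.363 against 0.289).

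On the per-length scale (FPKM as deposited), the mean Cst3 level was above that of any cathepsin in both groups, at 1539 in sham and 1883 in I/R. The order in sham was then Ctsd (265), Ctsb (122), Ctsl (41.8), Ctss (33.6), Cstb (32.1), Ctsz (27.8), Ctsh (10.7), Ctsc (8.86) and Ctsk (1.65). Only Ctsh and Ctsc overlapped there. In I/R the order below Cst3 was Ctsd (563), Ctsb (222), Ctsl (163), Cstb (127), Ctsz (107), Ctss (89.2), Ctsc (38.2), Ctsh (28.3) and Ctsk (4.05), and neighbours from Ctsb through Ctss overlapped, as did Ctsc and Ctsh. Ctss thus went from above to below Cstb and Ctsz, and Ctsc from below to above Ctsh, in the order of means. For Cst3, Ctss, Ctsc, Ctsd and Ctsh the deposited FPKM implied a shorter gene length than the length listed in the table, and by the listed lengths Ctsc was already above Ctsh in sham, with overlap.

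Summed over the 8 cathepsins, FPKM was 457 to 546 in sham and 1007 to 1604 in I/R. The sum was 0.647 ± 0.190 (SD, n = 3) of the Cst3 level in I/R and 0.332 ± 0.0237 (n = 3) in sham. By the lengths listed in the table these ratios were 0.668 and 0.338. Between the inhibitors, Cst3 FPKM was 10.2 to 19.4 times that of Cstb in I/R and 45.8 to 49.8 times in sham, with no overlap between groups.

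The make-up of the cathepsin pool differed too. Ctsd, the largest component, held 46.2% to 46.5% of the summed FPKM in I/R and 49.4% to 53.8% in sham, and Ctsb held 17.05% to 19.9% against 22.5% to 25.5%. Ctsl held 11.9% to 14.4% against 8.04% to 8.43%, Ctsz 8.07% to 9.38% against 5.18% to 5.65%, and Ctsc 3.07% to 3.23% against 1.59% to 1.93%. These 5 shares did not overlap between groups, with those of Ctsd and Ctsb lower in I/R and the others higher. The shares of Ctss, Ctsh and Ctsk overlapped. Shares within a library depend on each other, and they were not computed for other sets of genes that rose. Among all pairs of genes called higher, the ratio of counts within a library separated the groups in 58.6%. A shift in make-up is thus not particular to the cathepsins.

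**Figure D4:**
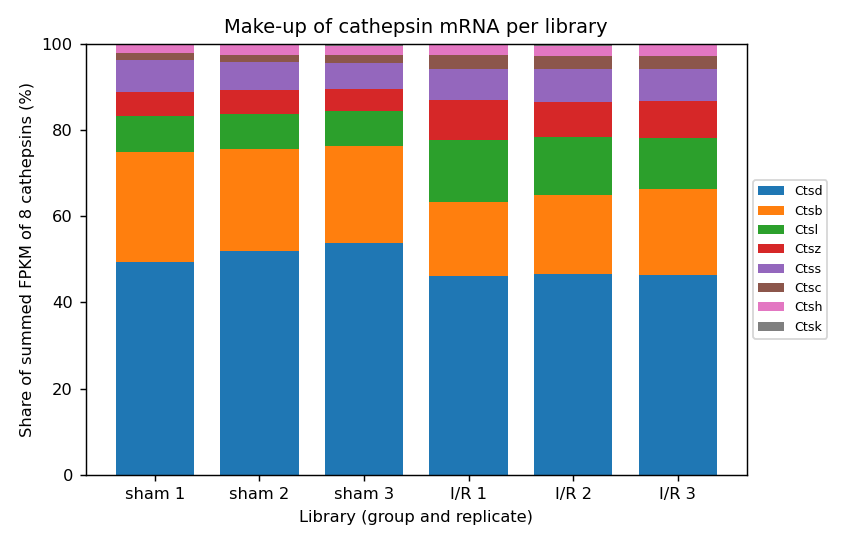
Share of each of the 8 cathepsins in their summed FPKM, in percent, for each library (bars, sham on the left and I/R on the right). Ctsd and Ctsb take smaller shares in the I/R libraries and Ctsl, Ctsz and Ctsc larger ones.

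The ratio of some pairs of genes overlapped between sham and I/R, and that of others did not. Counts of Ctsl per count of Cstb were 4.17 to 4.30 in I/R and 3.95 to 4.60 in sham, while counts of Ctsb per count of Cstb were 11.95 to 16.8 in I/R and 28.7 to 30.7 in sham. Among all 36 pairs of the 9 genes that rose, the ratio separated the groups in 21, a share close to the 58.6% found among all pairs of genes called higher.

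The genes lie apart in the genome, except for Ctsk and Ctss. In the coordinates of the deposited table, which follow the BALB/cJ assembly, Ctsk is at chr3:93027826-93037856 and Ctss begins 17.3 kb further on, at chr3:93055128-93085279, both on the plus strand. These neighbours differed in level (4.05 and 89.2 FPKM in I/R) and had log2 fold changes of 1.03 and 1.14. Ctsd (chr7:143134258-143151189, minus strand) overlaps Ifitm10 over 2629 bases on the same strand, so reads there may have been lost or shared. Of all stretches of 50 bases in the GENCODE M21 transcripts of Ctsd, Ctsl and Ctsb, 32.4%, 26.3% and 12.1% also occur in another annotated gene. Nearly all of these lie in genes at the same locus, and 1.16% of all stretches of Ctsl, shared or not, occur in a gene elsewhere. For the other 7 genes the share in another gene was at most 0.482%. In the coordinates of the deposited table, Ctsl and Ctsb overlap no other gene. Whether the shared stretches affected the counts of Ctsd, Ctsl and Ctsb was not tested.

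Of 14 other cathepsins in the table, 4 passed the filter, of which 1 rose and 1 fell. Ctsa, a serine carboxypeptidase of the lysosome, rose by 0.33 on the log2 scale (SE 0.11, adjusted p = 0.0405), a call lost in 9 of 18 alternative settings. Ctsf, a cysteine cathepsin, fell from 60.3, 62.4 and 65.4 CPM in sham to 37.9, 44.3 and 46.3 CPM in I/R, a log2 fold change of -0.55 (SE 0.10, adjusted p = 0.00384). Ctso, also a cysteine cathepsin, had -0.18 (SE 0.09, adjusted p = 0.131). Ctsw, a cathepsin of cytotoxic lymphocytes, had 82, 18 and 14 counts after I/R against 7, 15 and 4 in the sham libraries, with overlapping groups (adjusted p = 0.0731). Ctsg, a serine protease of neutrophil granules, had 1, 0 and 0 counts after I/R against 8, 0 and 0 in the sham libraries.

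Of the other cystatins and cathepsin inhibitors, 20 were in the table, 5 passed the filter, 3 rose and 0 fell, against 21.8% and 19.9% of all tested genes. Cst7, cystatin F, an inhibitor made by immune cells, had 97, 50 and 57 counts after I/R against 8, 5 and 1 in the sham libraries, with a log2 fold change of 3.69 (SE 0.56, adjusted p = 0.002). Ctla2a and Ctla2b, which resemble the inhibitory propeptide of cathepsins, rose by 3.95 (SE 0.32) and 3.12 (SE 0.29) on the log2 scale. They are near-identical paralogs, so the split of reads between them is uncertain. Cst7 passed the filter only by its I/R counts, and the paralogs may share reads. The share of this list that rose is therefore not comparable with that of all tested genes. The remaining members tested, Cst6 and Cstl1, had -0.07 and 0.48 and were not called (adjusted p = 0.857 and 0.469).

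Of 29 other lysosomal hydrolases, 8 rose and 7 fell, shares near the 21.8% and 19.9% of all tested genes, and their median log2 fold change of 0.03 was that of all tested genes. Among those that rose were Scpep1 (1.38), Lgmn (1.09), the asparaginyl protease that processes cathepsin proenzymes, and Gusb (1.05), whereas Arsb, which removes sulfate from glycosaminoglycans, had -1.26. Of 23 tested lysosomal membrane and acidification genes 6 rose and 7 fell (median -0.05), likewise near those shares. The macrophage membrane protein Cd68 rose by 2.78 on the log2 scale, Cd63 by 2.18, Lamp2 by 0.75 and Laptm5 by 0.70. Of 6 tested subunits of the proton pump that acidifies the lysosome, 5 fell (among them Atp6ap1, -0.60, and Atp6v0c, -0.46) and 1 rose (Atp6v1h, 0.35, adjusted p = 0.039). Atp6v0c lost its call with library sizes alone (-0.20, adjusted p = 0.107), and Atp6v1h lost its call in 9 of 18 alternative settings. Of the other subunits that fell, Atp6ap1 kept its call in all 18, Atp6v0d1 in 15, and Atp6v1a and Atp6v1b2 in 8 each. With library sizes alone the hydrolases split into 11 higher and 3 lower and the membrane genes into 9 and 2, where the median of all tested genes was itself 0.28 and that of the hydrolases 0.28.

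Of 10 genes that sort enzymes to the lysosome, 1 rose (M6pr, a mannose 6-phosphate receptor, 0.32) and 2 fell (Sort1, the receptor sortilin, -1.62, and Gga3, -0.31), or 3 and 1 with library sizes alone. Gga3 kept its call in 11 of 18 alternative settings (-0.05 with library sizes alone, adjusted p = 0.69) and M6pr in 14 of 18. Of the transcription factors that drive lysosomal genes, Tfeb rose by 0.53 on the log2 scale (SE 0.12, adjusted p = 0.00949), a call lost without both libraries of little choroid plexus RNA (adjusted p = 0.0609). Tfe3 had 0.33 (adjusted p = 0.0501) and Mitf 0.14 (adjusted p = 0.437). Tfec did not pass the filter, with 28, 7 and 30 counts in I/R against 3, 1 and 4 in sham.

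In the pathway of Ctss, antigen processing, 5 of 7 tested genes rose and 1 fell (median 1.18), against 21.8% and 19.9% of all tested genes. With the replicate number as a block, or without I/R replicate 1, 3 rose and 1 fell. Ifi30, a thiol reductase of antigen-processing lysosomes, rose by 2.67 on the log2 scale (SE 0.26). The invariant chain Cd74, the substrate of Ctss, rose by 2.06 (SE 0.38), from 1.02, 2.56 and 2.21 CPM in sham to 11.2, 5.98 and 7.03 CPM in I/R. H2-Ab1, an MHC class II chain, rose by 2.10 (SE 0.37), from low counts of 21, 27 and 9 in sham to 101, 88 and 77 in I/R. H2-DMa, which loads peptides, had -0.62 (SE 0.16, adjusted p = 0.0143), a call lost in 5 of 18 alternative settings (-0.37 with library sizes alone, adjusted p = 0.0782). H2-Aa (1.18, adjusted p = 0.0368) and H2-Eb1 (1.04, adjusted p = 0.0434) were called too, but each lost its call in 9 of 18 alternative settings.

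**Figure D5:**
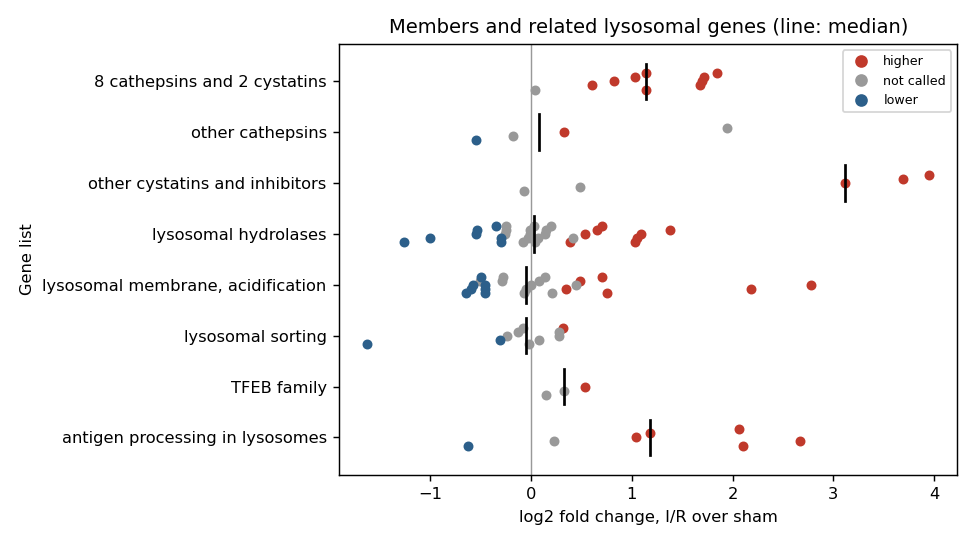
Log2 fold changes (I/R over sham) of the 10 genes and of 7 lists of related lysosomal genes, with 1 point per gene tested, red for genes called higher, blue for lower, grey for not called, and a black line at each median. Points of the hydrolase, membrane and sorting lists lie on both sides of 0 around medians of 0.03, -0.05 and -0.05, and the median of the 10 genes is 1.14.

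The annotation terms of the deposited table placed all 8 cathepsins under the term lysosome, with 341 other tested genes, of which 83 rose and 83 fell (median -0.04), against 21.8% and 19.9% of all tested genes. Under cysteine-type endopeptidase activity they listed 7 of the cathepsins, all but Ctsd, with 54 other genes, of which 16 rose and 10 fell (median 0.07).

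Markers of several cell types moved with the groups. Except in the monocyte and macrophage list and the neutrophil list, they are to be read against the 21.8% of all tested genes called higher and 19.9% lower. Of 8 tested monocyte and macrophage markers 7 rose (Lyve1 by 2.67, Mrc1 by 1.22 and Ccr2 by 3.27 on the log2 scale), and the summed level of the list was 67.8 to 108 CPM in I/R and 37.9 to 40.3 in sham. Vcan, which rose by 0.46, gave most of that sum in sham (26.7 to 30.2 CPM) and 37.6 to 44.3 CPM of it in I/R. Of 6 tested neutrophil markers 4 rose, with sums of 8.75 to 35.9 against 2.01 to 3.18 CPM, while Ly6g and Elane were at or under 3 counts in every library. The neutrophil markers that rose, S100a8, S100a9, Retnlg and Mmp8, passed the filter only by their I/R counts (Mmp8 had 4, 0 and 1 in sham). So did Ccr2, Arg1 and Chil3 among the monocyte and macrophage markers (Chil3 had 0, 7 and 0 in sham). The shares of both lists that rose are therefore not comparable with that of all tested genes. Of 8 tested microglial markers 3 rose (Fcrls 2.22) and 3 fell (P2ry12 -1.67), with sums of 249 to 360 against 219 to 255, and Itgam was at 0 in all libraries. Of the microglial sum, Fcrls gave 62.2 to 118 CPM in I/R and 15.8 to 20.5 CPM in sham.

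Of 7 endothelial markers 6 rose and 1 fell (432 to 679 against 272 to 276 CPM), and of 7 pericyte and fibroblast markers 5 rose and 1 fell (229 to 319 against 192 to 205). Of 7 neuronal markers 6 fell and 0 rose (2024 to 3926 against 6841 to 7173), and of 5 markers of hippocampal subfields 4 fell (189 to 413 against 741 to 773). Astrocyte markers gave 2 higher and 4 lower of 7 (4901 to 5219 against 5342 to 5638), oligodendrocyte markers 0 and 3 of 7 (6148 to 7169 against 7381 to 9089.7), and choroid plexus markers 0 of 10. The astrocyte sum joined opposite changes. Its mean in Gfap was 1998 CPM in I/R and 403 in sham (log2 fold change 2.31). In Slc1a2 it was 1588 against 3082 (-0.96). I/R replicate 1, where 9 of the 10 genes were highest, also had the highest monocyte and macrophage sum (108 against 71.4 and 67.8), the highest neutrophil sum (35.9 against 11.2 and 8.75) and the lowest neuronal sum (2024 against 3604 and 3926). Its sums were likewise the highest for microglia (360 against 249 and 295), endothelium (679 against 509 and 432) and pericytes and fibroblasts (319 against 238 and 229). The same held for oligodendrocytes (7169 against 6148 and 6499), while its astrocyte sum (5063) lay between those of the other I/R libraries (4901 and 5219). The part of these cell types in the change of the cathepsins was not tested.

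Ratios to macrophage-lineage genes of the same libraries, chosen after the values were seen, differed with the gene taken. Per 100 counts of Csf1r, the receptor that microglia and macrophages depend on (log2 fold change 0.23, adjusted p = 0.198), Ctss counts numbered 106 to 118 in I/R and 57.4 to 67.2 in sham, and Ctsc counts 53.5 to 62.8 against 17.02 to 22.2. All 9 genes that rose were higher per Csf1r count in every I/R library, as were 17.3% of tested genes, whereas Cst3 overlapped (953 to 1496 against 1369 to 1478). Per 100 counts of Cd68, by contrast, Ctss counts numbered 173 to 227 in I/R and 598 to 668 in sham, and Ctsc counts 93.8 to 115 against 165 to 258. Cd68 itself rose by 2.78 on the log2 scale, more than any of the 10 genes, so lower ratios to it follow from that choice. All 10 genes, Cst3 included, were lower per Cd68 count in every I/R library than in any sham library. The share of all tested genes for which this held was not computed, so it says nothing particular about the 10 genes.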

How the data were processed

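RNA-seq of 6 hippocampal libraries (3 I/R and 3 sham, grouped by their titles) was analysed. By the study's methods, the authors aligned reads with TopHat2 to an Ensembl genome and counted them per gene with HTSeq, and those raw counts are what the deposited table holds. The submitters' processing notes name Bowtie 0.12.2 and mm8 instead, while 40303 of the 41386 gene identifiers are those of the BALB/cJ strain, so reads of C57BL/6 mice were counted on another strain's annotation. Use of strand and of reads with several matches is not given in the sources used here. The deposited FPKM were computed by the authors from counts, a gene length and library size. FPKM gave 1 length per gene across libraries (within 1%), equal to the listed length for 29.4% of 15312 genes. The table's own p-values were not used. It had 4 split records, which were rejoined, and 0 pairs of identical libraries.

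Counts were tested in R 4.3.3 with edgeR 4.0.16 (filterByExpr, TMM, robust glmQLFit, glmQLFTest, no covariates), with Benjamini-Hochberg adjustment over 18569 genes and calls where the adjusted p was under 0.05 and the change over 1.2-fold. The standard error was the log2 fold change over the root of F. The steps were tested on simulated data. Library totals of 37493042 to 44788547 counts bear little on the precision of the 10 genes, which the spread between 3 pools limits. DESeq2 1.42.0, limma 3.58.1 with voom or on log2(FPKM + 1) and log2(FPKM + 0.1), other scalings and filters, a covariate for choroid plexus RNA and left-out libraries were alternatives. The named genes were all 10 members and each tested gene of the lists of other cathepsins and of other cystatins. To these came the 4 called genes of largest change in other lysosomal lists with Lgmn, Ifi30, Cd74 and the transcription factors, and up to 3 markers per cell type. Csf1r, Vcan, Atp6v0c, Atp6v0d1, Atp6v1a, Atp6v1b2, Atp6ap1, Atp6v1h, H2-DMa, H2-Eb1 and Ctsg were added after their values were seen. So were Fcrls, Arg1, Chil3, S100a8, S100a9, Retnlg and Mmp8. The members and lists were chosen with earlier results of these data known.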

Additional observations from a re-analysis of the deposited data

How the results depend on the processing

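Across 20 alternative settings, 7 genes (Ctsc, Ctsh, Ctsk, Ctsl, Ctss, Ctsz and Cstb) were called higher in all 20. At a fold over 2, Ctsb (0.60) and Ctsd (0.82) were no longer called, and calls fell to 2760 for all genes, 6 for hydrolases, 2 for membrane genes, 1 for sorting genes, 0 for other cathepsins and 0 for transcription factors, as a stricter limit must. Without both libraries of little choroid plexus RNA, Ctsb (0.60) lost its call, and counts of calls were 1 for other cathepsins, 1 for sorting genes, 0 for transcription factors and 3 for antigen processing. On log2(FPKM + 1) and log2(FPKM + 0.1), limma called Cst3 higher (0.29 for both, adjusted p = 0.0325 and 0.0302), where the median of all genes was 0.18 and 0.26. Other cathepsins gave 1 call with no filter, the replicate block or the choroid plexus covariate, and sorting genes 1 with the block. Transcription factors gave 2 calls with library sizes alone, upper-quartile scaling, DESeq2's Wald test, no filter, a minimum of 10 counts, both FPKM settings and unadjusted p. The cause of these changes was not tested.

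Leaving out 1 library at a time, the log2 fold change of Ctsb was 0.47 to 0.66 and of Ctsd 0.62 to 0.89, and that of Cst3 was -0.03 to 0.08. Counts of calls ranged from 5330 to 7976 for all genes, 1 to 3 for other cathepsins, 1 to 4 for sorting genes, 1 to 2 for transcription factors and 3 to 6 for antigen processing. Antigen processing fell to 3 without sham replicate 3, sorting to 1 without sham replicate 3, and other cathepsins to 1 without any 1 library except I/R replicate 3. Replicate numbers did not pair the samples: deviations of same-numbered libraries correlated at -0.10, 0.06 and -0.18. With the replicate number as a block, 6332 genes were called (7756 without it), and the 9 genes stayed called, Ctsb with an adjusted p of 0.041. Depth did not limit the members, the lowest of which, Ctsk, had at least 83 counts in each library.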
